A study of Danio rerio with 416 samples.

Results

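The cells described here are the margin cells of zebrafish embryos at 50% epiboly, compared between MZoep and wild type. A cell counted as a margin cell when its tbx16 level was at or above the 67th percentile of the kept cells of its own genotype. Of 416 cells in the series, 328 had full-length SMART-seq2 libraries and 292 of these were kept because they had at least 1500 genes at 1 FPKM (a read level corrected for transcript length and for the depth of the cell) or more. This gave 97 margin cells, 16 of 47 kept wild-type cells and 81 of the kept MZoep cells. The other kept cells, 31 of them wild type, served as the comparison.

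Wild-type cells came from Wild-type TLAB fish. MZoep cells came from MZoep tz57 embryos, which lack both the maternal and the zygotic function of one-eyed pinhead (tdgf1). Fish of each genotype were crossed among themselves, and embryos grew at 28°C, were freed of yolk by hand and taken apart mechanically. Cells were then picked by hand, one at a time. The number of embryos, clutches or parents is not labelled, so each genotype counts as 1 sample, and a difference between genotypes cannot be told apart from one between strains or clutches. No test, p-value or standard error was made from cells.

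The margin is the rim of the blastoderm next to the yolk, where mesoderm and endoderm form. Nodal ligands, there ndr1 and ndr2, bind activin receptors together with the co-receptor tdgf1. The receptors phosphorylate Smad2, which enters the nucleus with Smad4 and acts with FoxH1, Mixl1 and Eomesodermin on target genes, among them the genes of the feedback inhibitors lft1 and lft2. Strong Nodal signalling specifies endoderm and, dorsally, prechordal plate and notochord. MZoep embryos do not respond to Nodal ligands and lack endoderm and most mesoderm of the head and trunk, while tail mesoderm forms. tbx16 encodes a T-box factor of the early mesoderm and stays active at the margin through FGF and Wnt signals, which is why it can mark margin cells in both genotypes.

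Margin cells were selected on tbx16, so its values describe the selection. The cut lay at 136.92 FPKM for wild-type cells and at 123.98 FPKM for MZoep cells. In wild type the cells next to the cut had 136.85 and 128.59 FPKM below it and 136.93 and 143.21 FPKM above it. In MZoep they had 123.76 and 123.74 FPKM below it and 124.22 FPKM above it. Among wild-type margin cells tbx16 ran from 136.93 FPKM through a median of 177.4 to 295.41 FPKM, and in MZoep from 124.22 through 151.41 to 230.75 FPKM. tbx16 was at 1 FPKM or more in all 47 kept wild-type cells and in all but 1 of the kept MZoep cells. The cut therefore marks the upper range of tbx16 and not the presence of its transcript.

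The cut selected wild-type cells unevenly from the library preparation batches p1 to p4. It took 12 of 14 wild-type cells of p2, but 1 of 3 in p1, 3 of 18 in p3 and 0 of 12 in p4. In MZoep it took 21 of 79, 35 of 80, 20 of 61 and 5 of 25. The median tbx16 level of the kept wild-type cells was 126.4, 169.9, 57.8 and 62.2 FPKM in p1 to p4, against 85.6, 115.2, 100.5 and 95.1 FPKM in MZoep. Without weights, a comparison of margin with remaining cells in wild type would thus largely be one of p2 with p3 and p4. Means below are weighted equally in both genotypes by batch (7.64% p1, 71.5% p2, 20.9% p3, 0% p4). Relative read depth, read from the smallest FPKM step of each cell, had a median of 0.595 in wild-type and 0.966 in MZoep margin cells, and of 0.545 and 0.785 within p2. The median number of genes was 6896.5 and 7507.

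**Figure D1:**
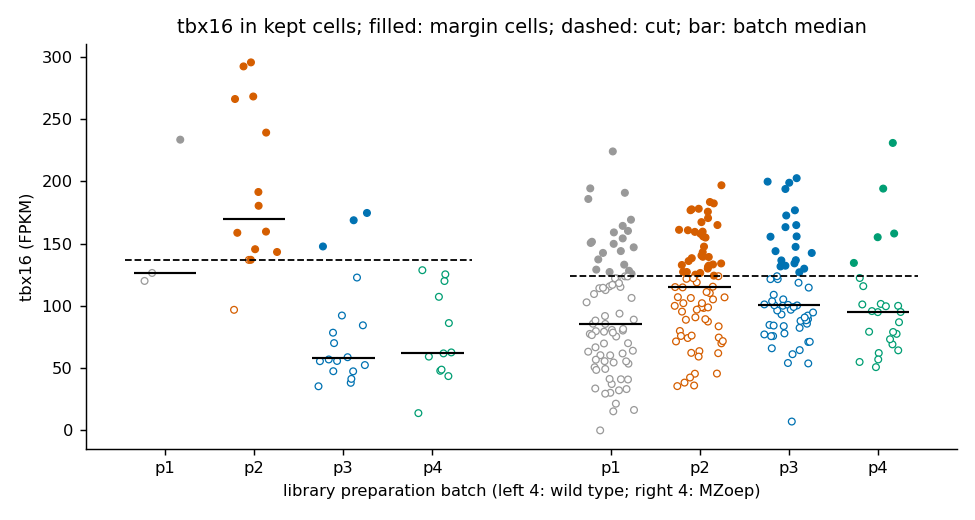
tbx16 level in FPKM (y axis) of every kept cell by library preparation batch (x axis), with wild type on the left and MZoep on the right. Filled points are margin cells, dashed lines the cuts at 136.92 and 123.98 FPKM, and bars the batch medians, and 12 of the 16 filled wild-type points lie in p2.

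The label margin was checked with genes other than tbx16. Across kept cells, tbxta (the T-box gene of notochord and early mesoderm), eve1 and cdx4 (homeobox genes of the ventral and posterior margin), vox (a ventral repressor gene) and drl (a zinc finger gene of lateral mesoderm) had positive rank coefficients with tbx16 in each of the 7 combinations of genotype and batch with at least 12 cells. The Spearman coefficient of tbxta was 0.62, 0.57 and 0.54 in wild-type cells of p2, p3 and p4 and between 0.20 and 0.40 in MZoep. For eve1 it was 0.82, 0.28 and 0.42 in wild type and between 0.37 and 0.50 in MZoep. The ectodermal gene sox3 had coefficients between -0.30 and 0.12. Cells within a batch share their preparation and are no replicates, so these coefficients are descriptions. Not all margin genes followed tbx16. noto had coefficients of 0.45, 0.48 and 0.73 in wild type but between -0.27 and 0.08 in MZoep. wnt8a lay between -0.07 and 0.42 over both genotypes. mixl1 was positive in all 7 combinations, between 0.01 and 0.37 in wild type and between 0.35 and 0.43 in MZoep. High tbx16 thus went with some margin genes and not with others.

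Over all 11754 measured genes, which are those whose genotype means average at least 1 FPKM, the median log2 ratio of MZoep over wild type in margin cells was 0.22. Ratios were computed on mean FPKM with 1 FPKM added. At least 2-fold lower in MZoep were 757 genes (6.44%), and 1902 (16.2%) were at least 2-fold higher. Higher genes made up 71.5% of these calls, but 60.1% when the 10 highest genes were left out and cells rescaled, which brought the median of all genes to 0.08. Within p2 alone 8.11% were lower and 20.5% higher. List values below are to be read against these shares. The lists were chosen with earlier results of these data known, so their counts and medians are descriptions. Lists share genes (356 entries in the table are 288 distinct genes), so their counts and medians are not separate results. Of the measured genes, 1716 passed the filter through only 1 genotype and so had to differ, and list counts hold such genes too.

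Most measured Nodal targets, 25 of 33, had lower means in MZoep margin cells (against 4446 of 11754 of all genes). Of 39 listed genes, 33 were measured, and 10 of those passed through only 1 genotype. The counts and medians describe a list chosen with earlier results known and are no independent support. At least 2-fold lower were 18 of the 33 (against 6.44% of all genes), and 2 were higher by that much (against 16.2%). The median of the list was -1.18, beside 0.22 for all genes. With no filter on low genes, 20 of 39 were at least 2-fold lower. Within p2 the median was -1.22 with 17 lower (against 8.11%) and 2 higher (against 20.5%), beside a median of 0.26 for all genes. Within p3, with 3 wild-type cells, the list median was 0.16 beside 0.59.

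Among the Nodal ligands and their inhibitors, lft1, a secreted Nodal antagonist and direct target, stood lowest. Of 6 listed genes 5 were measured, 3 were lower by 2-fold or more (against 6.44%) and 1 was higher (against 16.2%), with a median of -1.12. As 4 of the 5 passed the filter through only 1 genotype, the count and the median describe those genes and support nothing. Wild-type margin cells had lft1 levels from 0 through a median of 0 to 81.81 FPKM, with 6 of 16 cells at 1 FPKM or more (37.5%, exact 95% interval 15.2 to 64.6). MZoep margin cells had 0 to 8.36 FPKM, with 2 of 81 detected (2.47%, 0.3 to 8.64). The intervals cover counting error over cells only. In 5 wild-type cells lft1 exceeded every MZoep cell, and the log2 ratio was -3.60 (-3.91 in p2 and -2.91 in p3). Without the p2 cell that held 81.81 FPKM it was -2.98. Its paralogue lft2 was rarer in margin cells, detected in 2 wild-type cells and 1 MZoep cell, with a ratio of -0.73, and of -0.04 without the same p2 cell.

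The ligand gene ndr2 was at 0 to 29.63 FPKM in wild type, detected in 4 of 16 cells, and at 0 to 6.38 FPKM in MZoep, detected in 5 of 81 cells (ratio -2.08). For the ligand gene ndr1 the ratio was -1.12, with a highest wild-type value of 39.23 FPKM and a highest MZoep value of 17.42 FPKM. Its lower mean rested on that p2 cell too, without which the ratio was 0.052. The ligand partner gdf3, whose maternal product forms dimers with Nodal ligands, was in all 16 wild-type (103.82, median 345.81, 703.86 FPKM) and all 81 MZoep margin cells (lowest 5, median 233.17, 872.46 FPKM), with overlapping ranges and a ratio of -0.49. The other Nodal gene, spaw, known for its later role in left-right asymmetry, had a higher mean in MZoep (ratio 2.17). It was detected in 3 of 16 and 23 of 81 cells, and its ratio was -0.23 without p2.

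The receptor and transducer genes lay close to the median of all genes. Of the 10 that were measured, 0 were lower by 2-fold or more (against 6.44%) and 1 was higher (against 16.2%). Of the 10, 1 was measured through only 1 genotype. The list median was 0.23, close to 0.22. Transcripts of tdgf1, the gene mutated in MZoep, ran from 0 through 42.03 to 217.02 FPKM in wild type and from 0 through 35.81 to 142.93 FPKM in MZoep (ratio -0.19). The ranges of tdgf1 overlapped, so its transcript level is no check on which cells were mutant. foxh1, the forkhead partner of Smad2, was in every margin cell of both genotypes (medians 39.9 and 44.2 FPKM, ratio 0.34). The type I receptor genes acvr1ba (0.13) and acvr1bb (0.03) and the T-box gene eomesa (0.00) had near equal means. The ratio was 0.79 for smad2 and 0.52 for smad4a. The type II receptor gene acvr2ab was the member at least 2-fold higher (4 of 16 and 49 of 81 cells, ratio 2.02), and its relative acvr2ba had a ratio of 0.46. smad3a (0.13), smad3b (0.00) and eomesb (-0.10) were at the limit of detection.

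Several transcription factors and signals downstream of Nodal were present in a minority of wild-type margin cells and nearly missing from MZoep. mespab, a bHLH factor of paraxial mesoderm, was at 0 to 73.22 FPKM and detected in 4 of 16 wild-type cells (25%, 7.27 to 52.4). In MZoep it was detected in 1 of 81 cells (1.23%, 0.0313 to 6.69), at 6.22 FPKM, and the ratio was -3.11 (-3.53 in p2, -1.66 in p3). All 4 wild-type cells lay above the highest MZoep cell, while the other 12 were listed at 0. The FGF ligand gene fgf8a was detected in 3 of 16 cells, with a highest value of 38.5 FPKM, and in 1 of 81 cells at 9.58 FPKM (ratio -2.26, and -1.48 without the p2 cell that held 38.5 FPKM). The protocadherin gene pcdh8 was detected in 4 of 16 wild-type cells (highest 25.87 FPKM) and 0 of 81 MZoep cells, which allows a share of up to 3.7% (ratio -2.12).

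Other targets were detected in both genotypes but at different levels or in different shares of cells. mixl1, a homeobox factor of mesendoderm, ran from 0 through 3.13 to 350.09 FPKM in 16 wild-type cells and from 0 through 0.42 to 98.14 FPKM in MZoep (ratio -2.06). mixl1 was detected in 9 of 16 and 39 of 81 cells, and 3 wild-type cells lay above 98.14 FPKM. Without the cell that held 350.09 FPKM its ratio was -1.15, and without all of p2 0.94. The homeobox gene sebox was detected in 7 of 16 and 4 of 81 cells (ratio -2.07). wnt11, a non-canonical Wnt ligand gene needed for cell movements in gastrulation, ran from 0 through 22.36 to 493.02 FPKM and from 0 through 5.69 to 225.69 FPKM (ratio -1.87, -2.19 in p2 and -1.73 in p3). Its share of detected cells overlapped, at 75% (47.6 to 92.7) and 69.1% (57.9 to 78.9). The Eph ligand gene efnb2b (-1.59) and the zinc finger gene osr1 (-1.76) were each detected in 2 wild-type cells, and without p2 their ratios were 0.47 and 1.89. Without the p2 cell that held 76.43 FPKM of osr1 its ratio was -0.58.

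Not every target was lower. The actin-bundling gene fscn1a (ratio -0.21) and the Snail-type repressor genes snai1a (0.30) and snai1b (-0.24) had overlapping ranges and near equal means. The BMP pseudoreceptor gene bambia (0.69) and the chemokine receptor gene cxcr4a (0.93) had higher means in MZoep. cxcr4a ran from 15.9 through 151.1 to 332.6 FPKM in wild type and from 35.3 through 281.7 to 597.4 FPKM in MZoep. The listed genes at least 2-fold higher were dkk1b, a Wnt antagonist gene (2.51), and aldh1a2, a gene of retinoic acid synthesis (1.39). Each was detected in 1 wild-type margin cell, and aldh1a2 was at 2.03 without the p2 cell richest in Nodal targets. The ratio of dkk1b was -0.97 with the cut set within each batch.

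**Figure D2:**
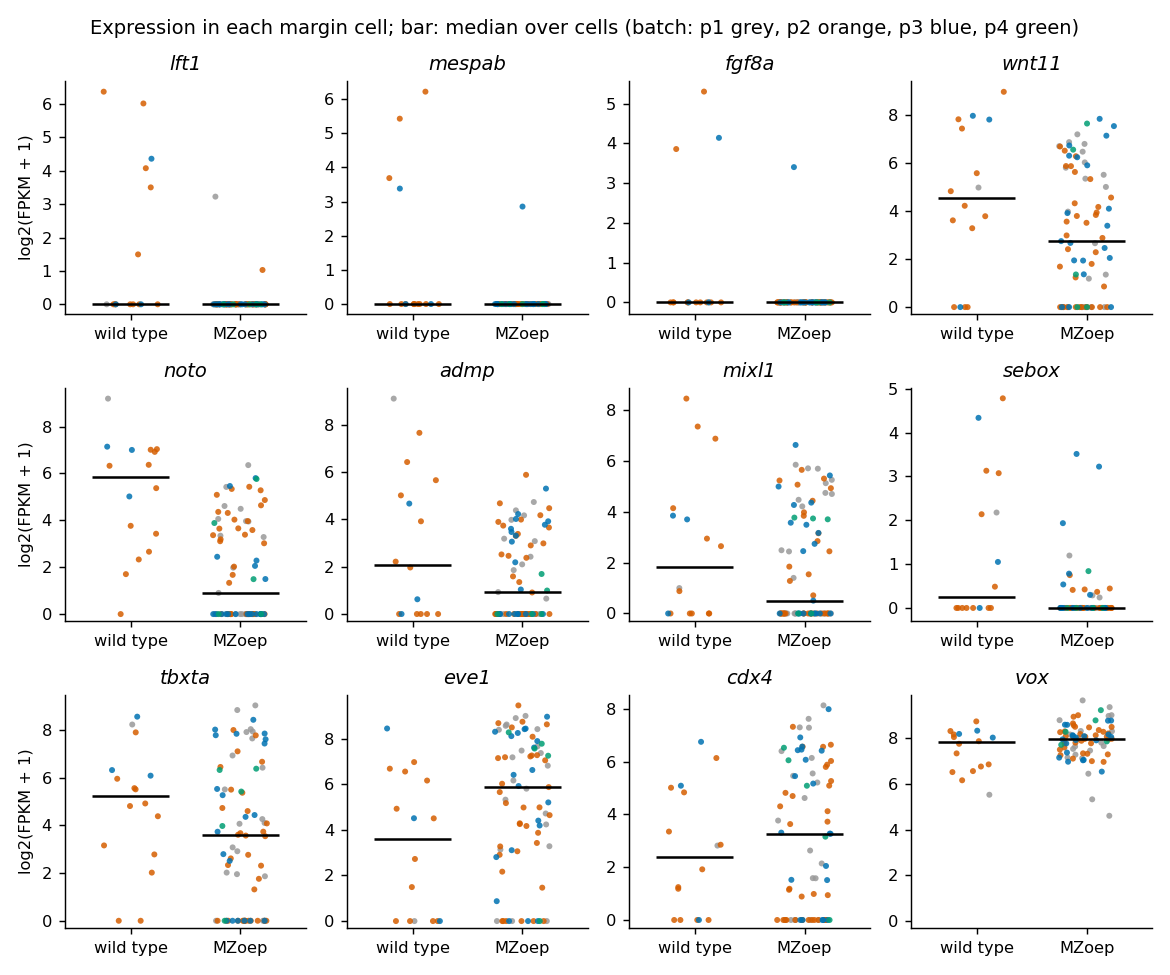
Level of 12 genes as log2(FPKM + 1) (y axis) in each of 16 wild-type and 81 MZoep margin cells (x axis), coloured by batch, with bars at the median over cells. In the upper row the high values of lft1, mespab and fgf8a lie in few wild-type cells, and in the lower row eve1, cdx4 and vox are present in both genotypes.

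The number of Nodal targets per cell showed how the difference was spread. Wild-type margin cells had 9 to 32 of the 39 targets at 1 FPKM or more (median 14.5), and MZoep margin cells had 3 to 19 (median 12). Of 16 wild-type cells, 12 lay above the MZoep median, and 5 lay above the highest MZoep cell. In p2, 7 of 12 wild-type cells lay above the MZoep median of 13. The ranges overlapped, and most wild-type margin cells were within the MZoep range. Relative depth was the lower one in wild type (0.595 against 0.966).

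Across all kept cells, 10 of 47 wild-type cells exceeded the highest MZoep cell, which had 19 targets. Of these 10 cells, 5 were margin cells and 5 were not. At least 30 targets were found in 4 wild-type cells, and 1 of them was a margin cell. That cell, in p2, had 292.2 FPKM of tbx16, 350.1 FPKM of mixl1, 81.81 FPKM of lft1 and 493.0 FPKM of wnt11. The others were in p3 and p4 and had 78.43, 119.9 and 122.7 FPKM of tbx16, all below the cut. The p4 cell held 447.3 FPKM of gsc and 410.1 FPKM of foxa3. A p3 cell held 633.2 FPKM of sox32, and the other p3 cell 239.1 FPKM of mespab. Those 3 cells were outside the margin set. Without the p2 cell, 16 Nodal targets were lower by 2-fold or more and 4 were higher by as much, with a list median of -0.66 over the same 33 genes.

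The same cut was also made within each genotype and batch. This again gave 16 wild-type and 81 MZoep cells. Of the margin cells, 9 of 16 wild-type and 73 of 81 MZoep cells were selected by both cuts. Of the 4 wild-type cells with at least 30 targets, the batch cut took 3 and the cut within genotype 1. With the batch cut all 39 Nodal targets were measured, 30 were lower by at least 2-fold (against 5.93% of all genes) and 2 were higher (against 12.8%). Their median was -2.21, beside 0.14 for all genes. How many of the 39 targets passed the filter through only 1 genotype is not given for this cut. The count and the median therefore describe those genes and support nothing. The 39 include genes not measured with the cut within genotype, so the medians of the 2 cuts cover different genes. Leaving out each wild-type cell in turn gave 25 to 31 lower genes. In the cells below that cut, 14 of the 39 genes were lower (against 3.13%) and 1 was higher (against 7.54%), with a median of -0.51. Under the cut within genotype the remaining cells had a median of -1.35, with 19 of 33 genes lower (against 3.21%) and 0 higher (against 6.79%). The cut over all batches placed as large a difference outside the margin set as inside it, and the cut within batches placed the larger one inside. Inside and outside also differ in batch weight, with p2 at 71.5% and 8.58% under the cut within genotype. With 1 sample per genotype no test of that contrast was possible.

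Single genes showed where the cuts mattered. With the cut within genotype, foxd3, admp and wnt11 were lower in margin cells (-2.59, -3.19 and -1.87) and not in the remaining cells (0.22, 0.61 and 0.46). This order held with the cut within batch, where the ratios were -2.21, -3.15 and -1.43 inside and -0.17, -0.28 and 0.41 outside. Both margin sets held the p1 cell with 549.37 FPKM of admp and the p2 cell with 493.02 FPKM of wnt11. The cuts are thus not independent. With the cut within batch, admp was detected in 3 of 16 wild-type and 35 of 81 MZoep margin cells, with medians of 0 FPKM. sox32, the Sox factor that specifies endoderm, went from 0.65 inside and -3.58 outside to -3.83 inside and -0.41 outside. The p3 cell with 633.2 FPKM counts as a margin cell under the batch cut and not under the other. gsc, the organiser homeobox gene, had ratios of -1.18 and -1.70 with the first cut and of -3.31 and 0.18 with the second. The p4 cell with 447.3 FPKM of gsc is likewise in the margin set of the second cut only. mespab was lower in each set of cells under either cut, from -4.03 to -3.11.

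**Figure D3:**
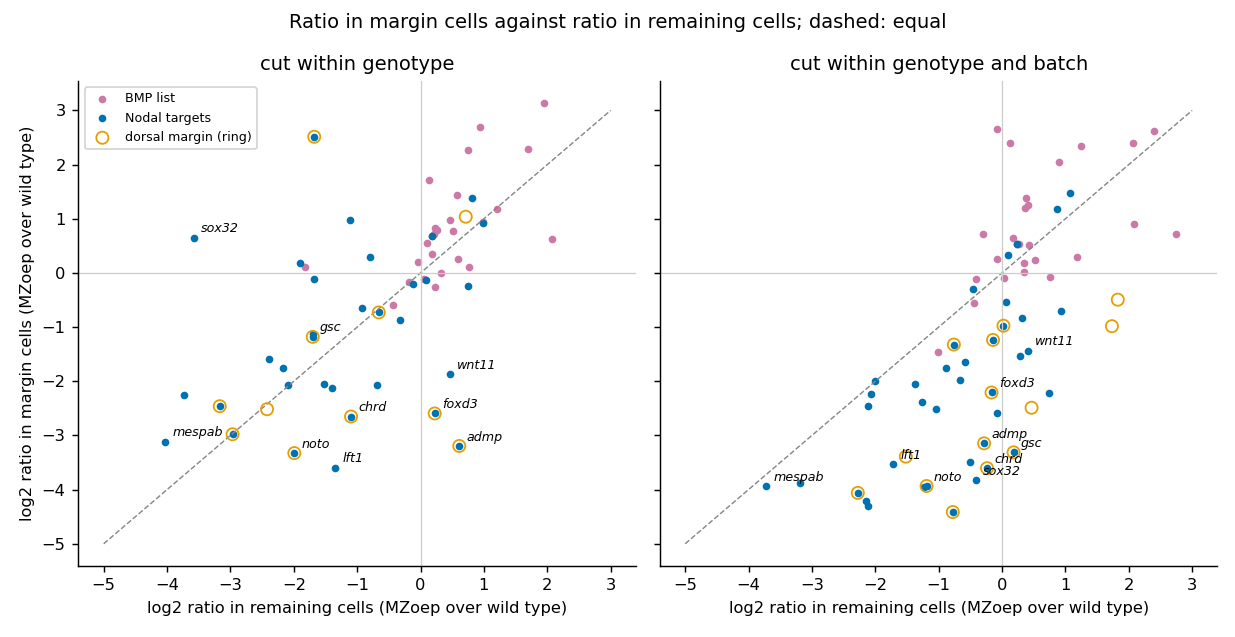
Log2 ratio of MZoep over wild type in margin cells (y axis) against that in the remaining cells (x axis) for measured genes of the Nodal target, dorsal margin and BMP lists, with the cut within genotype on the left and within genotype and batch on the right. On the right the Nodal targets lie lower on the y axis, with a median of -2.21 over 39 measured genes against -1.18 over 33 on the left.

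Within each genotype, margin cells were also set against the remaining cells, with batch weights of that genotype. With the cut within genotype, p3 carried 51.2% of the wild-type weight, and p2, with 2 remaining wild-type cells, carried 35.1%. The 12 wild-type cells of p4, all outside the margin set, had a weight of 0% and are not in these ratios. In wild type the margin cells had higher levels of tbxta (log2 ratio 2.68), eve1 (2.15), cdx4 (3.77), wnt11 (2.93), noto (2.1) and lft1 (2.09). In MZoep the same ratios were 1.43, 1.42, 1.5, 0.31, -0.34 and -0.15. By these ratios, which leave out wild-type p4, the posterior and ventral genes followed tbx16 in both genotypes, while wnt11, noto and lft1 did so in wild type. The 33 Nodal targets measured with the cut within genotype were followed under both cuts. With the cut within batch, 31 of the 33 were higher in wild-type margin cells (median 1.59, beside -0.03 for all genes) and 16 of 33 in MZoep (median -0.01, beside 0.02). With the cut within genotype the numbers were 17 and 17 (medians 0.27 and 0.00). chrd and admp, dorsal BMP-pathway genes, were lower in MZoep margin cells than in the remaining MZoep cells (-1.92 and -1.41).

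**Figure D4:**
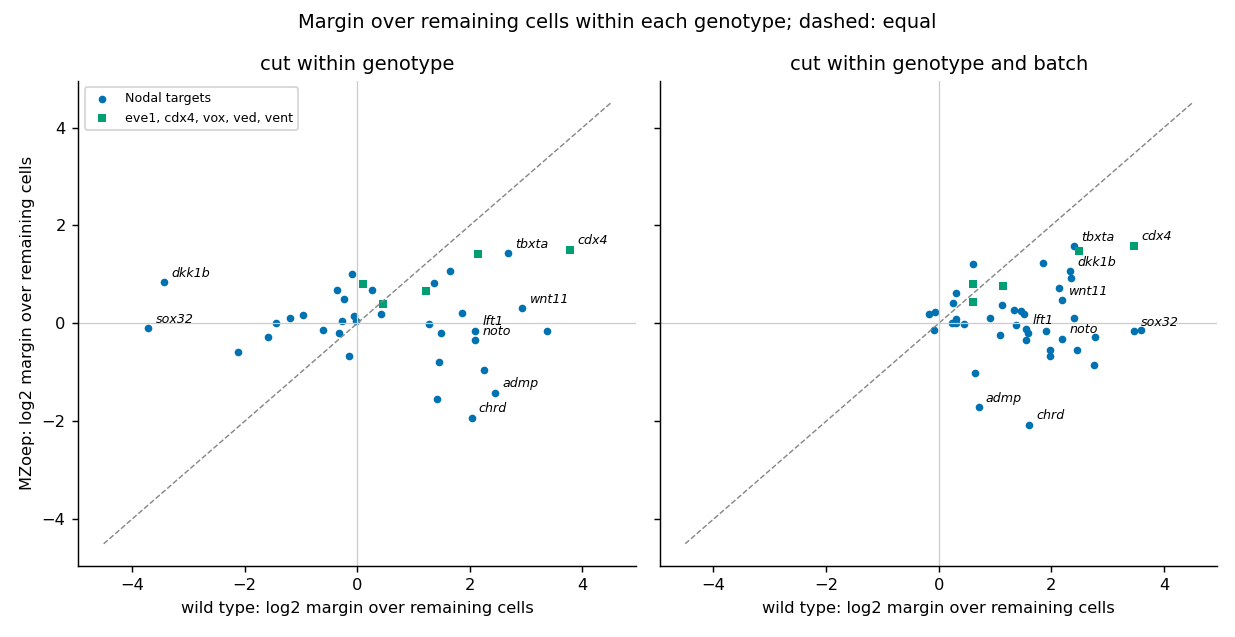
Log2 ratio of margin over remaining cells in MZoep (y axis) against wild type (x axis) for Nodal targets and for eve1, cdx4, vox, ved and vent, with both cuts. With the cut within batch 39 Nodal targets are drawn. Of the 33 measured with the cut within genotype, 31 lie right of 0 there in wild type, and in MZoep their median is -0.01.

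Genes of the dorsal margin, the zebrafish organiser, had a median of -2.52 over 11 measured of 17 genes (3 measured through 1 genotype). This was the lowest of the lists with all batches, but the Nodal ligand list was lower within p2 (-1.45 against -1.22), within p3 (-0.86 against 0.18) and with the cut within batch (-3.03 against -2.82). At least 2-fold lower were 8 (against 6.44%) and 2 were higher (against 16.2%). The dorsal list shares genes with the Nodal targets, dkk1b among them. The single wild-type margin cell of p1, with a weight of 7.64%, held 585.44 FPKM of noto and 549.37 FPKM of admp. The notochord homeobox gene noto ran from 0 through 59.95 to 585.44 FPKM in wild type, detected in 15 of 16 cells (93.8%, 69.8 to 99.8). In MZoep it ran from 0 through 0.87 to 81.01 FPKM, detected in 40 of 81 cells (49.4%, 38.1 to 60.7). In 15 of 16 wild-type cells noto exceeded the MZoep median, and 7 exceeded the highest MZoep cell. Its ratio was -3.33 with all batches, -2.64 without p1, -2.22 in p2 and -3.94 in p3.

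foxd3, a forkhead gene of the organiser, ran from 0 through 11.57 to 208.9 FPKM in wild type and from 0 through 0 to 42.9 FPKM in MZoep. It was detected in 12 of 16 (75%, 47.6 to 92.7) and 22 of 81 cells (27.2%, 17.87 to 38.2), with a ratio of -2.59, and of -1.61 without p1. The BMP antagonist gene chrd was detected in 10 of 16 and 26 of 81 cells (ratio -2.65, -1.27 without p1, 1.75 in p3). admp, an organiser BMP ligand gene, had a ratio of -3.19, of -1.89 without p1 and of -0.22 in p3. The LIM homeobox gene lhx1a was detected in 7 of 16 and 3 of 81 cells (-2.46). The forkhead genes foxa3 and foxa2 had ratios of -2.98 and -2.52, and without p1 of -1.13 and -0.65. foxa2 was listed at 0 in all 81 MZoep margin cells. gsc had a ratio of -1.18 and of -0.52 in p2. The higher genes were dkk1b and the homeobox gene otx2a, which had a ratio of 1.04, but of -0.49 with the cut within batch.

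Genes of the ventrolateral margin were mixed. At least 2-fold lower were 8 of 23 measured genes (against 6.44%) and 2 were higher (against 16.2%), with a median of 0.04, below the 0.22 of all genes. Of the 23, 5 were measured through only 1 genotype. The homeobox gene eve1, a target of BMP and Wnt signals, ran from 0 through 13.64 to 347.2 FPKM in wild type and from 0 through 57.66 to 700.8 FPKM in MZoep (62.5%, 35.4 to 84.8, and 82.7%, 72.7 to 90.2, of cells). In 5 of 16 wild-type cells eve1 exceeded the MZoep median, and the ratio was 1.18 (1.52 in p2, 0.20 in p3). cdx4, a posterior homeobox gene, had medians of 4.42 and 8.61 FPKM and a ratio of 0.63. In the remaining cells its ratio was 2.08, with detection in 12.9% of the 31 wild-type cells and in 36.6% of the MZoep cells. tbxta ran from 0 through 37.06 to 378.2 FPKM and from 0 through 11.21 to 525.3 FPKM (ratio -0.87, -0.44 in p2 and -0.95 in p3), with ranges that overlapped.

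The ventral repressor genes vox, vent and ved had ratios of 0.36, 0.55 and 0.79. vox was in every margin cell of both genotypes (medians 223.7 and 250.1 FPKM). The segmentation genes her7 (0.04) and hes6 (-0.06) had near equal means, and their relative her1 had a ratio of -1.24, but of 0.07 in p2. Lower were the Wnt ligand genes wnt8a (8 of 16 and 32 of 81 cells, -1.85) and wnt5b (6 of 16 and 23 of 81 cells, -1.97). Without p2 the ratio of wnt8a was 1.13. fgf24, an FGF ligand gene of the mesoderm, was at -2.25 and at -0.11 in p2. The receptor genes aplnra (0.85) and aplnrb (0.19) and the ligand gene apela (0.24) overlapped in range, and in the remaining cells aplnrb had a ratio of -1.91.

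Endoderm genes were few in margin cells. Of 8 listed genes 5 were measured, with a median of -0.12. At least 2-fold lower were mixl1 and foxa2, 2 of the 5 (against 6.44%), and 0 were higher (against 16.2%). Of the 5, foxa2 was measured through only 1 genotype, and mixl1 is also counted among the Nodal targets. sox32 was detected in 2 of 16 wild-type (highest 17.54 FPKM) and 26 of 81 MZoep margin cells (highest 40.3 FPKM), with a ratio of 0.65. The GATA factor gene gata6 had a ratio of -0.12, and in the remaining cells it had -1.67. Its relative gata5, whose means were under the filter of 1 FPKM, was detected in 3 of 16 and 6 of 81 cells (ratio -0.39). With the cut within batch the list median was -2.02 with 5 of 6 measured genes lower (against 5.93%) and 1 higher (against 12.8%). That set included the wild-type cell with 633.2 FPKM of sox32. How many of the 6 genes passed the filter through only 1 genotype is not given for this cut, so its count and median are descriptions.

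FGF and Wnt pathway genes differed among themselves. Among 17 measured FGF genes, 2 of them measured through only 1 genotype, the median was -0.18. Of the 17, 4 were lower by 2-fold or more (against 6.44%) and 0 were higher (against 16.2%). The lower ones were fgf8a, fgf24 and the feedback inhibitor genes spry1 (-1.14) and spry4 (-1.12). Without p2 the ratios of spry1 and spry4 were 0.49 and 0.44. Their relative spry2 had medians of 10.58 and 2.13 FPKM (-0.98). The FGF-induced genes etv4 (0.54), etv5a (0.61), etv5b (-0.27) and dusp6 (-0.18) and the receptor gene fgfr1a (-0.43) stayed within 2-fold. In the Wnt list 4 of 11 were lower (against 6.44%) and 3 higher (against 16.2%), with a median of 0.22. notum1a, which encodes a secreted Wnt inhibitor, ran from 0 through 17.14 to 83.97 FPKM and from 0 through 0.59 to 51.69 FPKM. It was detected in 15 of 16 (93.8%, 69.8 to 99.8) and 37 of 81 cells (45.7%, 34.6 to 57.1), with a ratio of -1.28 (-0.99 in p2, -2.47 in p3). The Wnt targets sp5l (medians 16.26 and 42.27 FPKM, 1.30) and lef1 (3 of 16 and 41 of 81 cells, 1.42) were higher and axin2 (0.08) was near equal.

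In the list of BMP ligands and targets, 22 of 26 measured genes had higher means in MZoep margin cells and 4 had lower ones. Over all genes 7308 of 11754 had higher means. At least 2-fold higher were 7 of the 26 (against 16.2%) and 0 were lower (against 6.44%). Of the 26, 2 were measured through only 1 genotype. The list median was 0.71 (0.49 above that of all genes), and in the remaining cells it was 0.30 with 4 higher (against 6.79%). For comparison, the median in margin cells was 0.56 for housekeeping genes and 0.87 for maternal transcripts. The BMP-pathway genes admp and chrd, which were lower, are counted in the dorsal list instead. The homeobox gene msx1b ran from 0 through 0 to 12.73 FPKM in wild type and from 0 through 8.82 to 203.74 FPKM in MZoep. It was detected in 6 of 16 (37.5%, 15.2 to 64.6) and 53 of 81 cells (65.4%, 54.04 to 75.7), and 37 MZoep cells lay above every wild-type cell. Its ratio was 3.14 (3.66 in p2, 2.11 in p3). Its relatives msx3 (2 of 16 and 40 of 81 cells, 2.69) and msx1a were also higher. msx1a was listed at 0 in all 16 wild-type margin cells, which allows a share of up to 18.8%, and was detected in 20 of 81 MZoep cells.

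The GATA factor gene gata2a (6 of 16 and 57 of 81 cells, 2.26), the BMP feedback gene szl (7 of 16 and 64 of 81 cells, 1.45) and the forkhead gene foxi1 (4 of 16 and 44 of 81 cells, 1.72), genes of the ventral side, were higher as well. The ratio of foxi1 in the remaining cells was 0.13, and that of szl 0.57. The ligand genes bmp2b (0.73), bmp7a (0.21) and bmp4 (-0.60) did not share this, and the ligand gene admp of the dorsal list was lower. The immediate BMP target id1 was in all margin cells at medians of 537.2 and 511.5 FPKM (-0.12), so the higher genes were a subset of the BMP list.

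SoxB1 and other animal-side ectoderm genes had a median of 0.78, with 4 of 15 measured genes at least 2-fold higher (against 16.2%) and 0 lower. Of the 15, 2 were measured through only 1 genotype. In the remaining cells the list median was 0.65, with 3 of 15 higher (against 6.79%). The neural progenitor gene sox2 was detected in 4 of 16 (25%, 7.27 to 52.4) and 59 of 81 cells (72.8%, 61.8 to 82.1), with a highest level of 44.53 and 127.97 FPKM and a ratio of 1.98. sox3 was in every margin cell, with medians of 231.4 and 397.9 FPKM (0.78). sox19b had a ratio of 1.43 and sox19a of 0.34. The margin cells of both genotypes thus carried sox3 beside tbx16.

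Markers of other cell types were counted in the same cells, and their part in the results was not tested. Of the enveloping layer list, the outer epithelium, 13 genes were measured, 2 of them through only 1 genotype. Of these 13, 9 had higher means in MZoep and 4 had lower ones. At least 2-fold higher were 7 (against 16.2%) and 0 were lower by as much (against 6.44%), with a median of 1.18. Within p3 the list median was 0.06, beside 0.59 for all genes. The summed level of the list ran from 59.35 through 235.8 to 1411 FPKM in wild type and from 14.87 through 374.3 to 1830 FPKM in MZoep. The keratin gene krt5 was detected in 12 of 16 (75%, 47.6 to 92.7) and 76 of 81 cells (93.8%, 86.2 to 97.97), with a ratio of 1.93. krt17 was at 0 FPKM in the 16 wild-type margin cells and detected in 22 of 81 MZoep cells, but it was detected in 6 of 31 remaining wild-type cells. In the remaining cells the list median was 1.93, with 11 of 13 higher (against 6.79%). Maternal transcripts had a median of 0.87 with 5 of 14 higher (against 16.2%), and 1 of the 14 was measured through only 1 genotype. slbp2, the oocyte histone stem-loop binding protein gene, was detected in 1 of 16 and 56 of 81 cells (3.13), and org, an oocyte transcript, in 9 of 16 and 78 of 81 cells (2.92). Of the yolk syncytial list 2 of 5 measured genes were higher (against 16.2%, median 0.81), but 3 of the 5 were measured through only 1 genotype. mxtx2 (1.72) and hnf4a (1.21) were detected in at most 2 wild-type and 12 MZoep cells. Housekeeping genes had a median of 0.56, which is also above that of all genes, with 2 of 15 higher (against 16.2%). Early zygotic factors had a median of 0.48 with 3 of 13 higher (against 16.2%). Cadherins and movement genes had a median of 0.19, with 3 of 17 lower (against 6.44%) and 1 higher (against 16.2%). Of these 17, 1 was measured through only 1 genotype.

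**Figure D5:**
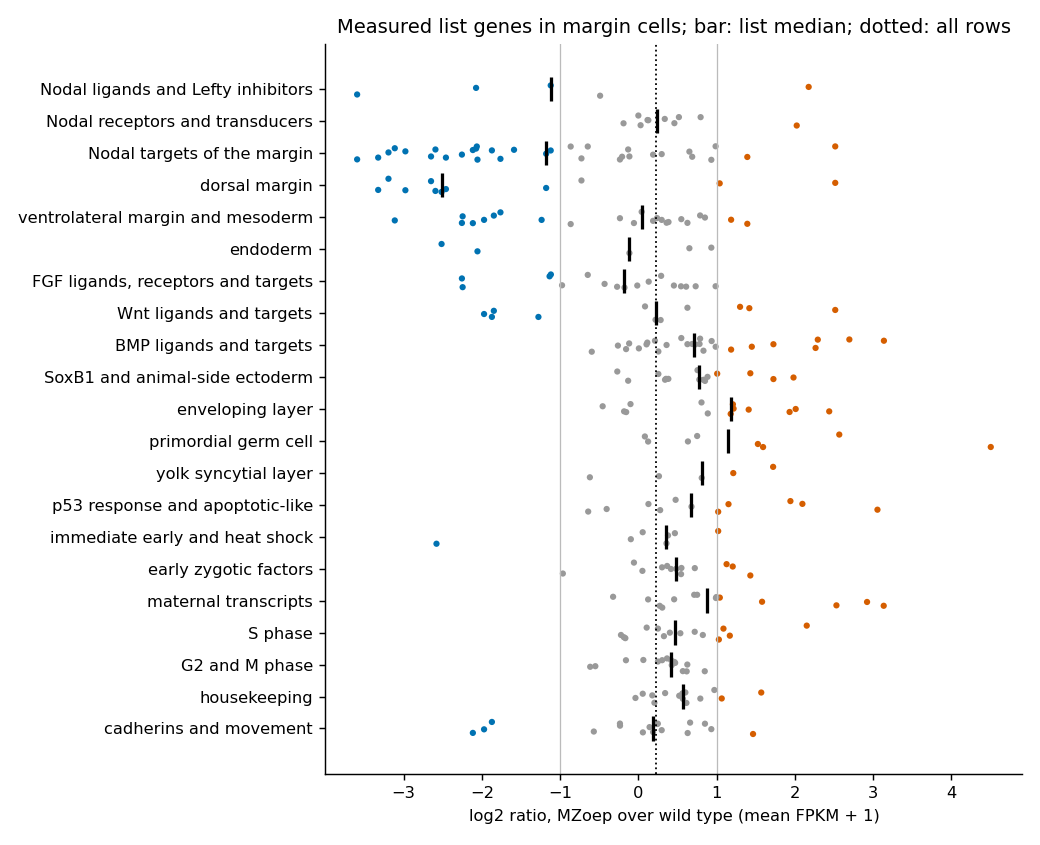
Log2 ratio of MZoep over wild type in margin cells (x axis) for every measured gene of 21 lists (y axis), in blue where at least 2-fold lower and in orange where at least 2-fold higher. Bars are list medians and the dotted line is the median of all genes, 0.22; with all batches the dorsal list has the lowest median (-2.52) and the enveloping layer list the highest (1.18).

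Outside the lists, the largest differences were in genes with little annotation. The uncharacterised gene si:dkey-108k21.23 ran from 178.3 through 681.6 to 1110 FPKM in wild type and from 0 through 0 to 14.44 FPKM in MZoep (ratio -8.76). It was the only 1 of 11754 measured genes (0.00851%) whose ranges did not overlap. In the remaining cells its ratio was -7.53, so the difference was not limited to margin cells. The table holds further genes of the same clone, and whether their reads can be told apart was not tested, which makes this value uncertain. zgc:194989 (ratio -5.01; 15 of 16 and 36 of 81 cells) and the cytochrome P450 gene cyp2aa8 (-4.41; 11 of 16 and 3 of 81 cells) were also lower in the remaining cells (-3.31 and -3.95). A transcript listed as ensdart00000129497 had medians of 98.75 and 3.86 FPKM (-3.73). Lower too were si:ch73-36p18.4 (-3.62), rundc3ab (-3.31) and the zinc finger gene znf1150 (-3.16; 7 of 16 and 2 of 81 cells), each with a smaller difference in the remaining cells (-2.59, -1.70 and -1.74).

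At the other end, si:dkey-207j16.5 (2 of 16 and 64 of 81 cells, ratio 3.62) and ttc32 (1 of 16 and 46 of 81 cells, 3.63) were higher by a similar amount in the remaining cells (2.84 and 3.09). tmem203 (3.64) and vsig10 (3.45), each detected in 1 wild-type margin cell, had lower ratios there (0.99 and 0.72). zgc:136254 and pycrl were listed at 0 throughout the wild-type margin cells and detected in 42 and 50 of 81 MZoep cells. In the remaining cells their ratios were 1.64 and 0.96. The lower depth of wild-type cells in p2 moves with this group, and its part was not tested. The adhesion gene epcam, present in all margin cells, was higher without such zeros (69.2, median 138.1, 199.1 FPKM in wild type and 97.6, median 346.3, 822.9 FPKM in MZoep; ratio 1.46), and 71 of 81 MZoep cells lay above every wild-type cell.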

How the data were processed

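The authors deposited FPKM values per gene and cell for the full-length libraries. Bowtie2, RSEM and the build GRCz10 are named in the submitters' processing notes, and no source used here gives versions or annotation. Table symbols are in capitals and are printed in lower case. The 88 MZoep cells with 5′ tag libraries are not analysed here. No doublet caller was run.

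The minimum for a cell was 1500 genes at 1 FPKM; the 36 cells under it had at most 1348. Relative depth came from the smallest FPKM step over 7100 genes, where 80610 of 556422 values lay near the first step, and absolute depth is unknown, so no counting interval is given for a mean. The mean per genotype was taken per batch and weighted by n1 x n2 / (n1 + n2). A gene was measured when the genotype means averaged 1 FPKM or more. Log2 ratios were taken after adding a pseudocount of 1 FPKM, so differences of low genes are understated. Shares have exact Clopper-Pearson 95% intervals, and a count of 0 allows up to 3 cells of the total. The weighting was tested on simulated data of higher expressed genes without zeros, with the same batch effect in both genotypes. Genes at 0 in most cells were not simulated. Scripts used Python 3.11.15, numpy 2.4.6, pandas 2.3.3, scipy 1.17.1 and matplotlib 3.10.9.

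The margin rule and the 21 gene lists (356 of 363 entries in the table, 288 distinct genes) were chosen with earlier results of these data known. Named are the 12 lowest and 12 highest ratios among genes with a mean of 5 FPKM and 20% of cells in a genotype, the same sign in p2 and p3 and without the highest cell; list members at least 2-fold apart that keep their sign without the highest cell; tbx16, tdgf1 and the Nodal pathway genes. Other list members are named for their role, and some genes named by number in clone libraries are left out.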

Additional observations from a re-analysis of the deposited data

How the results depend on the processing

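The number of Nodal targets at least 2-fold lower was 18 of 33 measured. It became 30 of 39 with the tbx16 cut at the 50th percentile and with the cut within genotype and batch, and 29 of 39 with tbxta in place of tbx16. It was 11 of 33 using means of log2 values, 8 of 33 at a pseudocount of 10 and 9 of 18 among genes with a mean of at least 5 FPKM. The median of the targets, -1.18 over 33 genes, became -2.21 with the cut within batch and -2.68 with tbxta, each over 39 genes. It lay nearer 0 using means of log2 values (-0.54), at a pseudocount of 10 (-0.43) and without the highest cell (-0.85).

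Of all measured genes, 6.44% (757) were at least 2-fold lower. This became 12.8% (1390) without p2, 2.91% (342) without the highest cell per genotype and gene, 2.64% (310) using means of log2 values, 9.75% (1146) and 0.672% (79) at pseudocounts of 0.1 and 10, 5.14% (338) at 5 FPKM and 3.56% (897) with no filter on genes. The 16.2% (1902) that were higher became 10.4% (1222) at the 50th percentile, 29.5% (3193) without p2, 27.1% (3187) without the highest cell, 0.944% at a pseudocount of 10, 11.5% (755) at 5 FPKM and 9.07% (2287) with no filter. Leaving out the highest cell takes 1 of 16 wild-type and 1 of 81 MZoep cells, and the gene filters alter how many genes are counted. Higher genes were 82.7% of calls using means of log2 values, 90.3% without the highest cell and 58.4% at a pseudocount of 10. For the other moves the cause was not tested.

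Leaving out each wild-type cell in turn, chosen after seeing the data, gave 16 to 18 lower Nodal targets, medians from -1.28 to -0.91, 5.6% to 6.93% lower and 15.6% to 17.98% higher genes. With the cut within batch it gave 25 to 31, -2.32 to -1.79, 6.02% to 6.43% and 12.6% to 14.2%. Without the wild-type cell richest in Nodal targets, also chosen after seeing the data, ndr1 was at 0.052.

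Of the named genes at least 2-fold apart, 14 changed sign under at least 1 of 18 alternatives. Without p2, which leaves 4 wild-type cells, these were cyt1l (-0.34), efnb2b (0.47), mixl1 (0.94), mos (-0.28), ndr1 (0.86), osr1 (1.89), spaw (-0.23), spry1 (0.49), spry4 (0.44) and wnt8a (1.13). At the 80th percentile ca15b was at -0.26. At the 50th percentile, with the cut within batch and with tbxta, dkk1b was at -1.0, -0.97 and -0.51 and otx2a at -0.34, -0.49 and -0.81; irx7 was at -0.30 with tbxta. No paired analysis was possible because the labels link no cells, embryos or clutches between the genotypes, and the shared batches entered as weights.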

Other observations

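Germ cell genes had higher means in MZoep margin cells. At least 2-fold higher were 4 of 8 measured genes (against 16.2% of all genes), with a median of 1.14. The highest value of several of these genes came from 1 cell. A single MZoep cell of p2 held 3201 FPKM of nanos3, 858.6 FPKM of dnd1, 457.2 FPKM of ca15b and 462.9 FPKM of tdrd7a, genes of primordial germ cells. The next highest values in any MZoep margin cell were 49.33 FPKM for nanos3 and 33.66 FPKM for dnd1. Without the highest cell the ratio of nanos3 went from 4.5 to 1.90 and that of dnd1 from 2.57 to 0.53. The list median was then 0.60, beside 0.49 for all genes, with 3 of 8 at least 2-fold higher (against 27.1%). With the cut within batch 1 of 7 measured genes was higher by as much (against 12.8%). Another MZoep cell of p2 held 566.0 FPKM of mdm2 and 326.6 FPKM of phlda3, targets of p53, with next highest values of 105.4 and 101.5 FPKM. The p53 list had 5 of 11 measured genes at least 2-fold higher in margin cells (against 16.2%, median 0.68). Of the 11, 3 were measured through only 1 genotype. In the remaining cells 0 of 11 were higher, against 6.79% of all genes, and the median was -0.33.

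S phase genes had a median of 0.47 with 4 of 14 measured genes at least 2-fold higher (against 16.2% of all genes). The replication gene gins2 was detected in 3 of 16 and 67 of 81 margin cells (ratio 2.15, 0.47 in the remaining cells), and mcm3 (1.17), mcm6 (1.03) and rrm1 (1.09) were also higher. G2 and M phase genes had a median of 0.42 with 0 of 15 at least 2-fold apart. Of 7 measured immediate early and heat shock genes, 1 was lower (against 6.44%) and 1 higher (against 16.2%), with a median of 0.36. Of the 7, 1 was measured through only 1 genotype. The immediate early gene ier2 was lower in MZoep (medians 14.07 and 0 FPKM, detected in 9 of 16 and 15 of 81 cells, ratio -2.58, -1.55 in p2 and -2.85 in p3). The transcription factor gene sox11a had medians of 112.02 and 56.08 FPKM (-0.97), against 111.97 and 142.8 FPKM for its paralogue sox11b (0.42).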
